A study of Mus musculus with 20 samples.

Results

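Alb, Afp, Afm, Gc, Ttr and Ahsg, the genes of 6 proteins that the liver secretes into plasma, were followed in 20 mouse libraries. They were chosen by name: Alb, Afp, Afm and Gc form the albumin gene family on chromosome 5, and the carrier Ttr and the fetuin Ahsg were set beside them. All 6 were found among the 54532 genes of the deposited table, each under 1 Ensembl identifier, and all 6 were among the 13162 genes tested. RNA of C57BL/6 mouse hepatocytes had been sequenced from hepatocyte organoids (Hep-Org, hepatocytes embedded in Matrigel and passaged) in 2 libraries. Freshly isolated hepatocytes came from mice that had lost 70% of the liver to surgery (partial hepatectomy, PHx) 6, 12, 24, 48 or 72 h or 7, 14 or 21 d earlier, with 2 libraries for each of the 8 times, and from undamaged liver, with 2 libraries. The libraries came in 2 submissions, of which the second holds replicate 2 of every PHx time and the first all others. No allele or agent beyond these was named, the passage of the organoids was not given, and nothing said whether the replicates of a group were separate animals or cultures. P-values here thus reflect the spread of these libraries alone, and that spread may be technical.

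Albumin is the most abundant plasma protein, keeps up the osmotic pressure of blood and carries fatty acids and bilirubin. Alpha-fetoprotein, the product of Afp, takes its place in the fetus and is shut off in the liver after birth, to return in hepatoblast-like and tumour cells. Afamin (Afm) binds vitamin E and escorts Wnt proteins, the vitamin D-binding protein (Gc) carries vitamin D and scavenges actin, transthyretin (Ttr) carries thyroid hormone and retinol-binding protein, and fetuin-A (Ahsg) inhibits mineral deposition. Several of these proteins are negative acute-phase reactants, made less by the hepatocyte during inflammation.

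On GRCm38, the assembly also called mm10, Alb (ENSMUSG00000029368) lies on the plus strand of chromosome 5 at 90460897 to 90476602. Afp (ENSMUSG00000054932, 90490737 to 90508907) follows 14.1 kb after its end, and Afm (ENSMUSG00000029369, 90518932 to 90553543) comes next, so that the 3 genes fill 92.6 kb in the same orientation. Gc (ENSMUSG00000035540, 89417522 to 89457898) sits 1003 kb before Alb on the minus strand. Ahsg (ENSMUSG00000022868) is on the plus strand of chromosome 16 at 22891277 to 22899449. All 6 genes are protein-coding.

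The promoters of Alb, the adult member, and Afp, the fetal one, are shown because both held the letters of 2 kinds of hepatocyte activators, TTGCNNAA of the C/EBP proteins and TGTTTGC of the forkhead proteins. The 140 bases before the RefSeq start (GRCm38.p6) are chr5:90460730-90460869 on the plus strand for Alb and chr5:90490574-90490713 on the plus strand for Afp. They read 5′ to 3′ along the gene, with capitals for these letters or their reverse complements.
Alb: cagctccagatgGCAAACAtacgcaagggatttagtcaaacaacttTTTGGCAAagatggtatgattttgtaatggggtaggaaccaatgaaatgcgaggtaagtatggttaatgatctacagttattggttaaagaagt
Afp: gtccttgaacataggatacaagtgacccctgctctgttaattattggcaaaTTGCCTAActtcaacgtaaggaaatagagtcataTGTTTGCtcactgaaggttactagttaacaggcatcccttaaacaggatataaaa
Counted back from the RefSeq start, the C/EBP letters began at -94 in Alb, on the minus strand, and at -89 in Afp, and the forkhead letters at -128 in Alb, on the minus strand, and at -55 in Afp. Those starts differ from the GENCODE gene starts by 27 bases for Alb and 23 for Afp. Among 32851 mouse promoters in the same table, 9.56% held TTGCNNAA and 4.30% held TGTTTGC in their 250 bases. The Ahsg promoter held both too, and those of Afm and Gc neither. The palindrome TTGCGCAA (0.164% of promoters), which is one case of the C/EBP letters, was in none of the 5. TATAAA, present in 12.4% of promoters, began at -7 in Afp and at -30 in Afm, and CCAAT (33.8%) was found in Alb, Afp, Afm and Gc. All letters were sought on both strands, and no match overlapped one of another motif. These are matches of letters and say nothing of binding.

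Levels are FPKM, which are per exon length and so comparable between genes. Depth recovered from the table ran from 13650382 to 41392903 reads per library. Differences are log2 differences of FPKM + 1 between group means, with their standard error (SE), from a limma fit over all tested genes, and the adjusted p (Benjamini-Hochberg) comes from the same fit. Genes counted as called had an adjusted p below 0.05 together with a difference of 1 or more in size. Xist, a female-specific RNA, was at 13.6 FPKM or more in Hep-Org replicate 2 and in both libraries of 48 h, 72 h and 7 d, while the Y-linked Ddx3y was at 9.66 FPKM or more in the other 13 libraries. Saa1, a positive acute-phase gene, was at 19.9 FPKM in undamaged replicate 1 and 20927 FPKM in undamaged replicate 2. The part of these differences in the results below was not tested.

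In the organoids, transcripts of 5 of the 6 genes fell and that of Afp rose. Against undamaged liver all 6 were called, 5 lower and 1 higher, where 13.8% of all tested genes were called lower and 10.6% higher. Against the 4 libraries of PHx 14 d and 21 d, liver late after regrowth, again 5 were called lower and 1 higher, with backgrounds of 14.2% and 11.9%. In deposited FPKM both Hep-Org libraries lay below both undamaged libraries for 5 of the 6, as they did for 35.5% of tested genes. In bulk RNA, fewer cells of a type and less RNA per cell cannot be told apart.

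Alb was at 3132 and 86.4 FPKM in the 2 Hep-Org libraries, against 48653 and 44646 FPKM in undamaged liver. In deposited FPKM both organoid libraries were below every liver library, and they were far from each other. After rescaling to the same sum per library (TPM), replicate 1 was at 16951 TPM, above the lowest liver library, PHx 6 h replicate 2, at 14234 TPM. The log2 difference was -6.48 ± 1.18 (SE; adjusted p = 0.000973 from limma) against undamaged liver and -6.18 ± 1.02 (adjusted p = 0.000339) against PHx 14 d and 21 d. The size rested on the replicate: against undamaged liver it was -9.06 without Hep-Org replicate 1 and -3.89 without replicate 2, called both times.

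Afp, the fetal member, was at 3.17 and 33.6 FPKM in Hep-Org libraries, against 0.637 and 0.164 FPKM in undamaged liver, the undamaged values resting on 44 and 6 reads. Both organoid libraries were above both undamaged ones, and the difference was 3.12 ± 0.73 (SE; adjusted p = 0.00543 from limma). Against PHx 14 d and 21 d it was 2.09 ± 0.64 (adjusted p = 0.0185), but here the groups overlapped, since PHx 14 d replicate 1 was at 6.41 FPKM. Without Hep-Org replicate 2 neither comparison called Afp (1.59, adjusted p = 0.0555 against undamaged liver, and 0.56, adjusted p = 0.445 against PHx 14 d and 21 d). Without PHx 14 d replicate 2 the second was not called either (1.65, adjusted p = 0.0592).

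Afm, the vitamin E carrier, was at 0.896 and 11.9 FPKM in Hep-Org, against 137 and 135 FPKM in undamaged liver. In deposited FPKM both were below the lowest liver library, at 23.1 FPKM, but in TPM replicate 2, at 70.8, was above all 4 libraries of 6 h and 12 h (24.3 to 58.0 TPM). The difference was -4.80 ± 0.75 (SE; adjusted p = 0.000316 from limma) against undamaged liver and -4.66 ± 0.65 (adjusted p = 8.93e-05) against PHx 14 d and 21 d. Against undamaged liver it was -3.41 without Hep-Org replicate 1 and -6.18 without replicate 2.

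Gc, the vitamin D carrier, fell least, with 1583 and 1080 FPKM in Hep-Org against 4192 and 6415 FPKM in undamaged liver. Its organoid libraries agreed better than those of the other members and overlapped the lowest liver time, PHx 6 h. The difference was -1.99 ± 0.45 (SE; adjusted p = 0.00431 from limma) against undamaged liver and -1.66 ± 0.39 (adjusted p = 0.00425) against PHx 14 d and 21 d. After rescaling each library to the same FPKM sum it was no longer called, at -0.03 (adjusted p = 0.958) and -0.39 (adjusted p = 0.369), and without Hep-Org replicate 2 not against PHx 14 d and 21 d (-1.38, adjusted p = 0.0534). That rescaling moved the median of all tested genes to 1.30 against undamaged liver and 0.93 against PHx 14 d and 21 d, and relative to this shift Gc was at -1.34 and -1.32. Calls over all genes against undamaged liver, 1393 higher and 1817 lower before, became 7552 higher and 731 lower, and against PHx 14 d and 21 d 1560 higher and 1865 lower became 6106 higher and 1070 lower. The other 5 members kept their direction and call against undamaged liver under it, at -4.53 for Alb, -3.15 for Afm, -3.01 for Ttr, -1.40 for Ahsg and 4.39 for Afp.

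Ttr (ENSMUSG00000061808, plus strand of chromosome 18 at 20665280 to 20674321), the thyroid hormone carrier, was at 77.4 and 393 FPKM in Hep-Org, against 4588 and 6494 FPKM in undamaged liver. Ahsg, the mineral-binding fetuin, was at 880 and 347 FPKM in Hep-Org, against 4053 and 7888 FPKM in undamaged liver. In deposited FPKM the organoid libraries were below all 18 liver libraries for both genes. In TPM this held for Ttr, while Ahsg in Hep-Org replicate 1, at 4762 TPM, was above both 6 h libraries (3779 and 2730 TPM). The difference against undamaged liver was -4.96 ± 0.74 for Ttr (SE; adjusted p = 0.000221 from limma) and -3.35 ± 0.57 for Ahsg (adjusted p = 0.000605). Against PHx 14 d and 21 d it was -4.76 ± 0.64 for Ttr (adjusted p = 6.78e-05) and -2.78 ± 0.50 for Ahsg (adjusted p = 0.000621). Without Hep-Org replicate 1 the differences against undamaged liver were -3.79 for Ttr and -4.02 for Ahsg, and without replicate 2 they were -6.12 and -2.68.

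**Figure D1:**
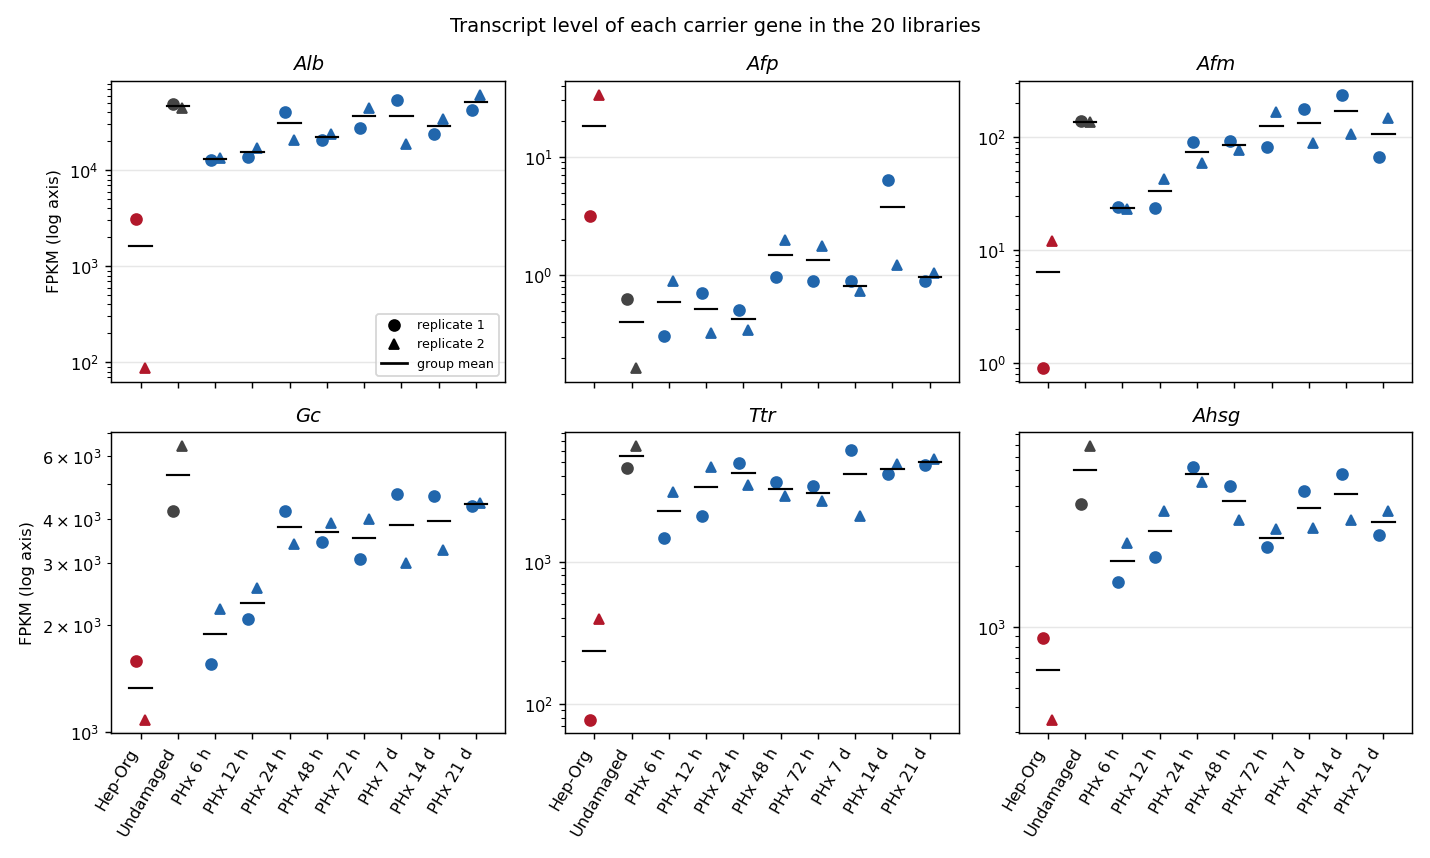
FPKM (log axis) of each of the 6 genes in the 20 libraries, by group, with circles for replicate 1, triangles for replicate 2 and a bar for the group mean. In deposited FPKM, Hep-Org libraries (red) are the lowest for Alb, Afm, Ttr and Ahsg and the highest group for Afp, PHx libraries are blue and undamaged libraries dark grey.

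The organoid replicates were farther apart than any liver pair for Alb, Afp, Afm, Ttr and Ahsg, though not for Gc, and not in 1 direction. Alb was 36.2 times and Ahsg 2.53 times as high in Hep-Org replicate 1 as in replicate 2, and Gc 1.47 times. Replicate 2 in turn held 10.6 times the Afp, 13.2 times the Afm and 5.07 times the Ttr of replicate 1. Within a liver group the widest fold between replicates was 2.89 for Alb, 5.27 for Afp, 2.25 for Afm, 1.57 for Gc, 2.92 for Ttr and 1.95 for Ahsg.

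Over the 4380 tested genes with a mean of at least 5 FPKM in Hep-Org, the median fold between the 2 organoid libraries was 1.2. A fold as wide as that of Alb was seen in 5 of these genes (0.114%, Alb included), one as wide as that of Afm in 18, as that of Afp in 23 and as that of Ttr in 51 (1.16%). Gc was not unusual, with 20.1% of genes at least as far apart. Each fold is that of 2 libraries and has no replicate check.

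Among other hepatocyte genes some were close between the organoid libraries and some far apart, and fetal genes went both ways. Hnf4a, the master regulator of the hepatocyte, was at 43.5 FPKM in replicate 1 and 37.9 in replicate 2, and Apob, the protein of very-low-density lipoprotein, at 114 and 120 FPKM. The iron hormone Hamp was at 16.4 FPKM in replicate 1 and 207 in replicate 2, Itih3 at 49.9 and 16.4 FPKM and Rbp4 at 498 and 222 FPKM, and the sum of 10 hepatocyte markers was 1071 FPKM in replicate 1 and 450 in replicate 2. Gpc3, a proteoglycan of the fetal liver, was at 1.55 FPKM in replicate 1 and 29.3 in replicate 2, in the direction of Afp. The imprinted fetal genes H19 (73.4 and 14.0 FPKM) and Igf2 (9.07 and 0.0275 FPKM) went in the direction of Alb. Xist was at 0.00128 FPKM in replicate 1 and 25.3 in replicate 2, and the bile duct keratin Krt19 at 9.80 and 17.3 FPKM. The part of any of these in the folds between replicates was not tested.

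Within the libraries the albumin transcript was set against the other carriers. The ratio of Alb to Gc was 1.98 and 0.0800 in the Hep-Org libraries, against 5.16 to 13.8 in the 18 liver libraries. That of Alb to Ahsg was 3.56 and 0.249 in Hep-Org and 3.96 to 16.3 in liver, and both organoid libraries were below the liver range for these ratios. Alb to Ttr, by contrast, was 40.4 and 0.220 in Hep-Org, on either side of the liver range of 3.69 to 16.7, and so was Alb to Afm, with 3494 and 7.28 in Hep-Org and 102 to 645 in liver. Alb exceeded Afp 989-fold in Hep-Org replicate 1 and 2.58-fold in replicate 2, against 3736-fold or more in every liver library.

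**Figure D2:**
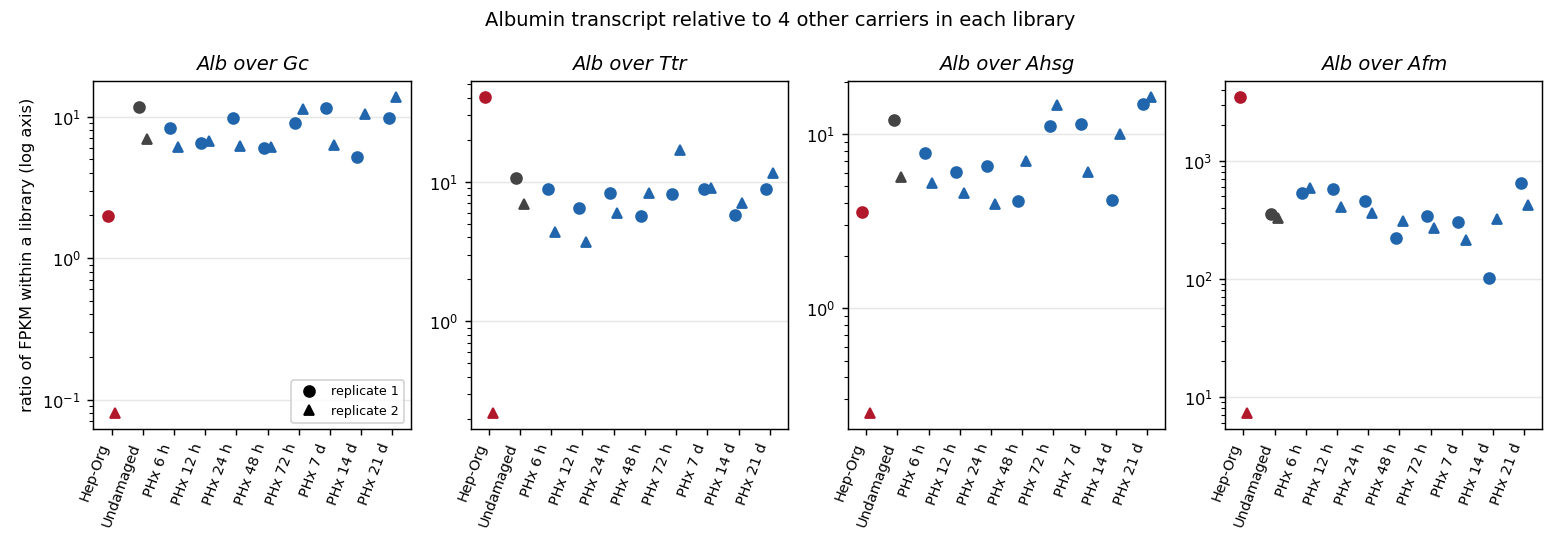
Ratio of the Alb FPKM to that of Gc, Ttr, Ahsg or Afm within each library (log axis), by group, with circles for replicate 1 and triangles for replicate 2. The 2 Hep-Org libraries fall below the liver libraries for Gc and Ahsg and on both sides of them for Ttr and Afm.

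Organoids carried little of other hepatocyte transcripts as well. The sum of 10 hepatocyte markers was 450 to 1071 FPKM in Hep-Org, against 13569 to 17058 FPKM in undamaged liver, and all 10 were called lower. The sum of 7 cholangiocyte and progenitor markers was 2742 to 4452 FPKM in Hep-Org, against 8.07 to 335 FPKM in undamaged liver, with 7 of 7 called higher, and Spp1 made up 4416 and 2695 FPKM of it. Of 7 fetal hepatoblast markers 4 were tested and called higher, Afp itself being 1 of them, and the sum without Afp was 109 FPKM in Hep-Org replicate 1 and 47.9 in replicate 2, against 0.0198 to 0.191 FPKM in undamaged liver. A marker under 1 FPKM in all liver libraries could be tested only through Hep-Org, as Krt7 was (1.24 and 1.54 FPKM there). The counts called higher in these 2 lists are thus partly set by the filter. Markers of Kupffer cells and macrophages summed to 0.884 to 4.46 FPKM in Hep-Org, against 29.5 to 751 FPKM in undamaged liver, and the Kupffer gene Clec4f was listed at 0 in Hep-Org replicate 1. The part of cell composition in the fall of the carriers was not tested.

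After PHx, 2 of the carriers, Afm and Gc, fell at 6 h. Both were called lower against undamaged liver (2 of 6, where 7.98% of all tested genes were), and against PHx 14 d and 21 d the same 2 genes were called lower (background 8.12%). Both 6 h libraries lay below both undamaged libraries for Alb, Afm, Gc, Ttr and Ahsg, 5 of the 6, where 25% of tested genes did so. All 6 lay below all 4 libraries of PHx 14 d and 21 d, where 24.2% did. The same 6 h libraries enter both comparisons.

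Afm was at 24.2 and 23.1 FPKM at 6 h, against 137 and 135 FPKM in undamaged liver and 65.6 to 235 FPKM at PHx 14 d and 21 d. The replicates of 6 h and of undamaged liver each nearly coincided in deposited FPKM. In TPM they did not, with 55.0 and 24.3 TPM at 6 h and 293 and 137 TPM in undamaged liver. The difference was -2.48 ± 0.75 (SE; adjusted p = 0.0359 from limma) against undamaged liver and -2.34 ± 0.65 (adjusted p = 0.0169) against PHx 14 d and 21 d. Within the first submission the 6 h library was at -2.32 against PHx 14 d and 21 d and within the second at -2.37. With the submission as a term, as a replicate block, the call against undamaged liver was lost (-2.47, adjusted p = 0.0615) and that against PHx 14 d and 21 d kept (-2.34, adjusted p = 0.0251).

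Gc was at 1551 and 2225 FPKM at 6 h, against 4192 and 6415 FPKM in undamaged liver. All 4 libraries of PHx 14 d and 21 d were above the 6 h pair too. The difference was -1.48 ± 0.45 (SE; adjusted p = 0.0369 from limma) against undamaged liver and -1.15 ± 0.39 (adjusted p = 0.0419) against PHx 14 d and 21 d. Within the first submission the difference against PHx 14 d and 21 d was -1.53 and within the second -0.77. With the replicate block neither was called (-1.48, adjusted p = 0.0747, and -1.15, adjusted p = 0.0689).

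These calls stood close to the threshold. Against undamaged liver, Afm was not called without either 6 h library or either undamaged library (4 libraries, adjusted p 0.0861 to 0.118), and Gc not without 6 h replicate 1, undamaged replicate 2, or any library of 48 h or 21 d (6 libraries, 0.0514 to 0.180). Against PHx 14 d and 21 d, Afm was not called without either 6 h library, 14 d replicate 1 or 21 d replicate 2 (4 libraries, 0.0503 to 0.0790), nor Gc without either library of 6 h, 24 h, 48 h, 72 h or 21 d or 14 d replicate 1 (11 libraries, 0.0523 to 0.246).

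Alb was at 12875 and 13547 FPKM at 6 h, against 48653 and 44646 FPKM in undamaged liver. The pairs lay far apart, and yet the difference of -1.82 ± 1.18 (SE; 95% interval -4.36 to 0.72; adjusted p = 0.308 from limma) did not pass. In a fit to the 18 liver libraries alone, chosen after seeing the data, the same difference had an SE of 0.61 and an adjusted p of 0.0618. Against PHx 14 d and 21 d the difference was -1.53 ± 1.02 (adjusted p = 0.285), or an adjusted p of 0.0517 in liver alone. Without Hep-Org replicate 1 it was called there (adjusted p = 0.0499).

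Ttr was at 1463 and 3084 FPKM at 6 h, against 4588 and 6494 FPKM in undamaged liver (-1.36 ± 0.74, adjusted p = 0.221). Ahsg was at 1662 and 2598 FPKM at 6 h, against 4053 and 7888 FPKM in undamaged liver (-1.44 ± 0.57, adjusted p = 0.0961). Both were below undamaged liver in each library without passing the test. Afp, at 0.305 and 0.887 FPKM at 6 h against 0.637 and 0.164 FPKM in undamaged liver, overlapped (0.19 ± 0.73, adjusted p = 0.899). After rescaling to the same FPKM sum no member was called at 6 h against undamaged liver, while 4 were against PHx 14 d and 21 d, Ttr (-1.77, adjusted p = 0.0252) and Ahsg (-1.47, adjusted p = 0.0165) besides Afm and Gc. That rescaling moved the median of all genes to -0.30 in the second comparison and its calls over all genes from 1140 higher and 1069 lower to 438 higher and 1903 lower.

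**Figure D3:**
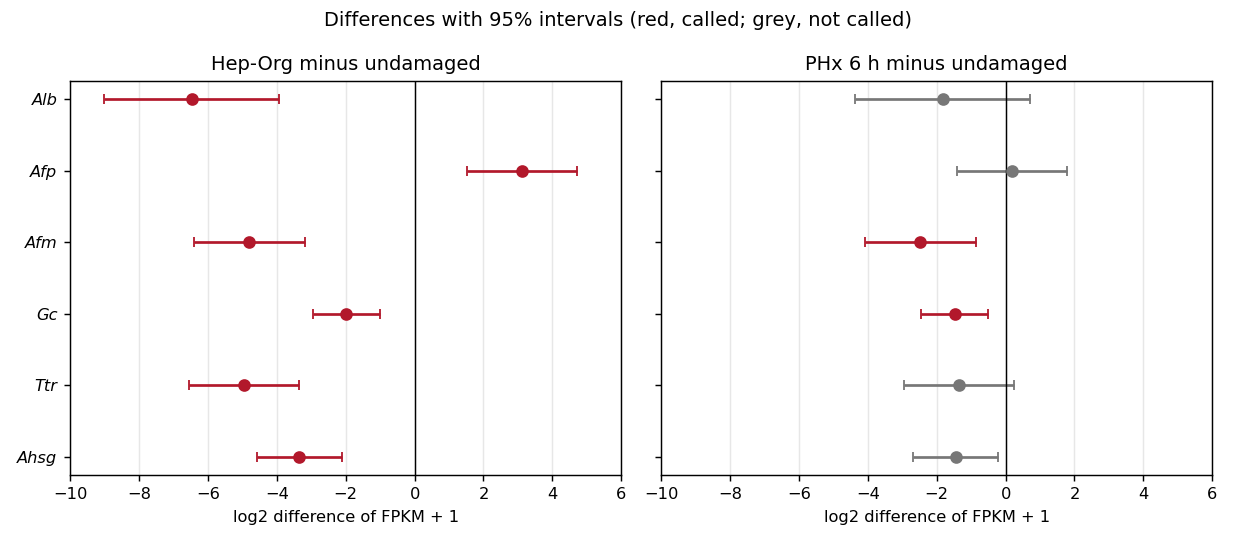
Log2 difference of FPKM + 1 with its 95% interval for each gene, Hep-Org minus undamaged (left) and PHx 6 h minus undamaged (right), red where called and grey where not. All 6 are called in Hep-Org, Afp alone to the right of 0, and at 6 h Afm and Gc are called.

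Markers of several other cell types were higher in sum in the 6 h libraries. The sum of 5 erythroid markers was 581 to 7089 FPKM at 6 h, against 32.1 to 39.1 FPKM in undamaged liver, with 4 of 5 called higher. The 10 hepatocyte markers summed to 7895 and 18552 FPKM at 6 h, around the 13569 and 17058 FPKM of undamaged liver. Of these 10, however, 4 were called lower and 1 higher, with a median difference of -1.12, against 0.01 over all tested genes. Kupffer and macrophage markers (102 to 164 FPKM at 6 h, against 29.5 to 751 FPKM in undamaged liver) and cholangiocyte and progenitor markers (19.9 to 70.5 FPKM, against 8.07 to 335 FPKM) stayed inside the undamaged range. Stellate and mesenchymal markers summed to 25.1 to 30.6 FPKM at 6 h, against 2.74 to 13.7 FPKM in undamaged liver, with 3 of 6 called higher. Lymphocyte markers (3.55 to 13.9 FPKM at 6 h, against 0.236 to 3.27 FPKM in undamaged liver) and fetal hepatoblast markers without Afp (2.23 to 5.53 FPKM, against 0.0198 to 0.191 FPKM) were above the undamaged range too, with 1 and 0 genes called. Sinusoidal endothelial markers, at 45.6 to 141 FPKM at 6 h against 14.7 to 110 FPKM in undamaged liver, overlapped. The part of these cells' RNA in the lower carrier levels was not tested.

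At 12 h no member passed the test. Alb was at 13594 and 17195 FPKM, Afm at 23.7 and 42.3, Gc at 2085 and 2542, Ttr at 2085 and 4656 and Ahsg at 2233 and 3766 FPKM. Alb, Afm, Gc and Ahsg were below both undamaged libraries, 4 of 6, where 21.5% of tested genes were. Erythroid markers summed to 6437 and 136 FPKM in the 12 h libraries, against 32.1 to 39.1 FPKM in undamaged liver, and their part in these levels was not tested. By limma 0 members were called against undamaged liver (5.56% of all genes called in either direction) or against PHx 14 d and 21 d (9.12%). At an unadjusted p under 0.05 there were 2 in each, Afm and Gc, and voom on recovered reads called 0.

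The fit to liver alone made calls for Afm at 12 h. It called Afm lower at 12 h against undamaged liver (-2.07 ± 0.54, adjusted p = 0.0477 from limma; 3.37% of genes lower) and against PHx 14 d and 21 d (-1.94 ± 0.47, adjusted p = 0.0214; 4.4% lower). So did, against PHx 14 d and 21 d, fits to all libraries with a pseudocount of 5 (adjusted p = 0.0302) or a filter of at least 5 FPKM (0.0464), and in both comparisons fits without either Hep-Org library (0.0472 and 0.0466 against undamaged liver). At 6 h it called Afm (adjusted p = 0.0120 and 0.00446) and Gc (0.0383 and 0.0421) as the fit to all libraries did, with 7.3% of genes lower against undamaged liver and 7.81% against PHx 14 d and 21 d.

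From 24 h on no member was called, and replicates differed by up to 2.89-fold for Alb (7 d) and 2.25-fold for Afm (14 d). For Alb the pairs were 40825 and 20852 FPKM (24 h), 20456 and 23838 (48 h), 27761 and 44931 (72 h), 54144 and 18723 (7 d), 23936 and 33893 (14 d), and 42311 and 61188 FPKM (21 d). For Afm they were 90.0 and 58.1 FPKM (24 h), 92.1 and 76.6 (48 h), 80.9 and 167 (72 h), 177 and 87.6 (7 d), 235 and 105 (14 d), and 65.6 and 146 FPKM (21 d). Both genes were below undamaged liver at 24 h and 48 h. The share of all tested genes lying so is not given here from 24 h on. At 6 h it was 25% and at 12 h 21.5%, so such a placement is common with 2 libraries a group. From 72 h these 2 genes overlapped undamaged liver at every time except Alb at 14 d, which was below it.

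Gc moved least over this stretch, with 4204 and 3390 FPKM (24 h), 3431 and 3898 (48 h), 3065 and 3997 (72 h), 4698 and 2997 (7 d), 4639 and 3255 (14 d), and 4349 and 4442 (21 d). Ttr was at 4930 and 3467 FPKM (24 h), 3629 and 2898 (48 h), 3385 and 2685 (72 h), 6114 and 2091 (7 d), 4161 and 4826 (14 d), and 4807 and 5283 (21 d). At 48 h and 72 h Gc and Ttr were again below both undamaged libraries. These libraries carried Xist, as did those of 7 d, where both genes overlapped undamaged liver. Ahsg went its own way, with 6225 and 5259 FPKM (24 h), 4987 and 3400 (48 h), 2486 and 3048 (72 h), 4717 and 3078 (7 d), 5712 and 3379 (14 d), and 2853 and 3745 (21 d). Its 24 h pair lay inside the undamaged range, and its 72 h and 21 d pairs lay below it. For the placements of Gc, Ttr and Ahsg too, no share of all tested genes is given.

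Afp stayed low in all liver libraries. It was at 0.710 and 0.323 FPKM (12 h), 0.507 and 0.348 (24 h), 0.970 and 2.0 (48 h), 0.903 and 1.78 (72 h), 0.889 and 0.734 (7 d), 6.41 and 1.22 (14 d), and 0.895 and 1.04 (21 d). Every library from 48 h on was above both undamaged libraries, and the share of all tested genes doing so is not given here. None of these times was called, the nearest being 14 d at 1.55 ± 0.73 (SE; adjusted p = 0.498 from limma).

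Against undamaged liver, 0.228% (24 h), 0.691% (48 h), 3.23% (72 h), 0.608% (7 d) and 0% (14 d and 21 d) of all tested genes were called. Against PHx 14 d and 21 d the shares were 0.0912% (24 h), 0.669% (48 h), 0.494% (72 h) and 0.494% (7 d). Of the members limma called 0 at each of these times, with 0 at an unadjusted p under 0.05 and 0 by voom. The 95% intervals were wide: for Alb at 21 d against undamaged liver the difference was 0.13, with an interval from -2.41 to 2.67. A test over the 8 PHx times together called 0 members and 13.6% of all genes (unadjusted p under 0.05 for Afm alone, adjusted p = 0.123 from limma's F test, and 0 by voom). In liver alone it called Afm (adjusted p = 0.0370), with 10.5% of all genes, on a range of 2.68 between its lowest and highest time.

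Ordered by mean deposited FPKM over the 10 groups, Hep-Org was lowest for Alb, Afm, Gc, Ttr and Ahsg and highest for Afp, and PHx 6 h was the next lowest for those 5. In TPM Hep-Org was not lowest for Gc, at 8570 and 6442 TPM in Hep-Org and 3525 and 2338 TPM at 6 h. Nor was it lowest for Ahsg, with a mean of 3416 TPM in Hep-Org and 3254 TPM at 6 h. For Alb 4 of 9 neighbours in this order did not overlap, from Hep-Org through 6 h, 12 h and 48 h to 14 d. Afm had 2 such steps, Hep-Org to 6 h and 12 h to 24 h. The other 4 genes had 1 each: Hep-Org to 6 h for Ttr and Ahsg, 12 h to 72 h for Gc, and 7 d to 21 d for Afp. All other neighbours overlapped and were not told apart by their libraries. No step was tested, the groups were put in order by these same values, and the share of such steps over all tested genes is not given. No step is thus taken as a difference between groups. Some steps were narrow, for Alb from 13547 FPKM (6 h replicate 2) to 13594 (12 h replicate 1) and from 23838 (48 h replicate 2) to 23936 (14 d replicate 1). In TPM Alb at 6 h overlapped both Hep-Org and 12 h. The 6 genes together took 3.07% and 1.16% of the FPKM sum in Hep-Org, 4.0% and 2.26% at 6 h, 4.80% and 3.87% at 12 h, 12.2% and 17.4% at 21 d and 13.1% and 6.63% in undamaged liver.

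Across the 18 liver libraries, Gc was the member most like the others. Pearson's r of log2(FPKM + 1) was 0.85 for Gc with Afm, 0.83 with Alb, 0.78 with Ttr and 0.78 with Ahsg. Alb and Afm stood at 0.78 and Alb and Ahsg at 0.47. Afp stood at 0.48 with Afm, close to the 0.47 of Alb and Ahsg, and at 0.01 to 0.26 with the other members. The points share libraries, depth and groups, so these values are a description.

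Among 4648 genes with a mean of at least 5 FPKM in liver, the genes most like Alb were Aadac, a lipase of the endoplasmic reticulum (r = 0.94), Ces2e, a carboxylesterase (0.89), and Sucnr1, the succinate receptor (0.88). Afm was closest to Nrn1 (0.91), Serpind1, which encodes heparin cofactor II (0.90), and Lamp2, a lysosomal membrane protein (0.90). Those closest to Gc were Tmem59 (0.97), Iyd (0.96) and Sdc2 (0.96), to Ttr Serpinc1, which encodes antithrombin (0.92), Pgrmc1 (0.91) and Marc1 (0.91), and to Ahsg BC004004 (0.92), Cnpy2 (0.90) and Creg1 (0.89). For Afp the nearest were weaker, Gm8730 (0.77), Eif3e (0.68) and Nab1 (0.67). Likeness was measured over 18 libraries and no test was made.

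The chromosomal neighbourhood of Alb, Afp and Afm did not move as a block in Hep-Org. Within 500 kb of the starts of Alb, Afp, Afm or Gc there were 15 other protein-coding genes, of which 12 were tested, all 12 near Alb. Against undamaged liver 4 of them were called in Hep-Org, where 13.8% of all tested genes were called lower and 10.6% higher. The nearest on the far side of Afm, 5830473C10Rik, which RefSeq names Albfm1, an albumin superfamily member, starts 42.2 kb from the Afm start and fell to 0.0835 ± 0.00389 FPKM in Hep-Org, against 17.4 ± 3.55 FPKM in undamaged liver (SD, n = 2 each; -4.07 ± 0.45 SE, adjusted p = 1.89e-05 from limma). At 6 h it was at 4.78 ± 3.26 FPKM, against 17.4 ± 3.55 FPKM in undamaged liver, and was called lower (-1.78 ± 0.45, adjusted p = 0.0172).

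Farther from Alb on that side, genes of neutrophil-attracting chemokines rose. Cxcl5 was at 474 ± 354 FPKM in Hep-Org and Cxcl3 at 55.9 ± 24.3 FPKM (SD, n = 2 each), and both were listed at 0 in the 2 undamaged libraries. In liver Cxcl5 reached at most 0.752 FPKM, so it was tested only through Hep-Org. Cxcl2 was at 39.7 ± 19.4 FPKM in Hep-Org, against 0.394 ± 0.323 FPKM in undamaged liver (4.80 ± 0.58 SE, adjusted p = 3.87e-05 from limma). Cxcl1, at 126 ± 3.86 FPKM in Hep-Org against 30.2 ± 30.0 FPKM in undamaged liver, was not called there (adjusted p = 0.0780) and was called against PHx 14 d and 21 d, making 5 in that comparison. Rassf6 (0.63), between 5830473C10Rik and the chemokines, was not called, nor were Ankrd17, Gm9958 and Cox18 on the other side of Alb. Ppbp and Pf4 among the chemokines and Mthfd2l beyond them were not called either. Ankrd17 (0.87, adjusted p = 0.00531) and Mthfd2l (0.97, adjusted p = 0.00454) passed on the adjusted p but not on size. Mthfd2l, which reached at most 0.70 FPKM in liver, was also tested only through Hep-Org. At 6 h against undamaged liver 3 neighbours were called, 5830473C10Rik lower and Cxcl2 and the platelet factor Pf4 higher (2.76 ± 0.59, adjusted p = 0.00759), and 4 against PHx 14 d and 21 d. Of the 13162 tested genes, 1050 were called lower and 707 higher in the first of these comparisons, and 1069 and 1140 in the second.

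**Figure D4:**
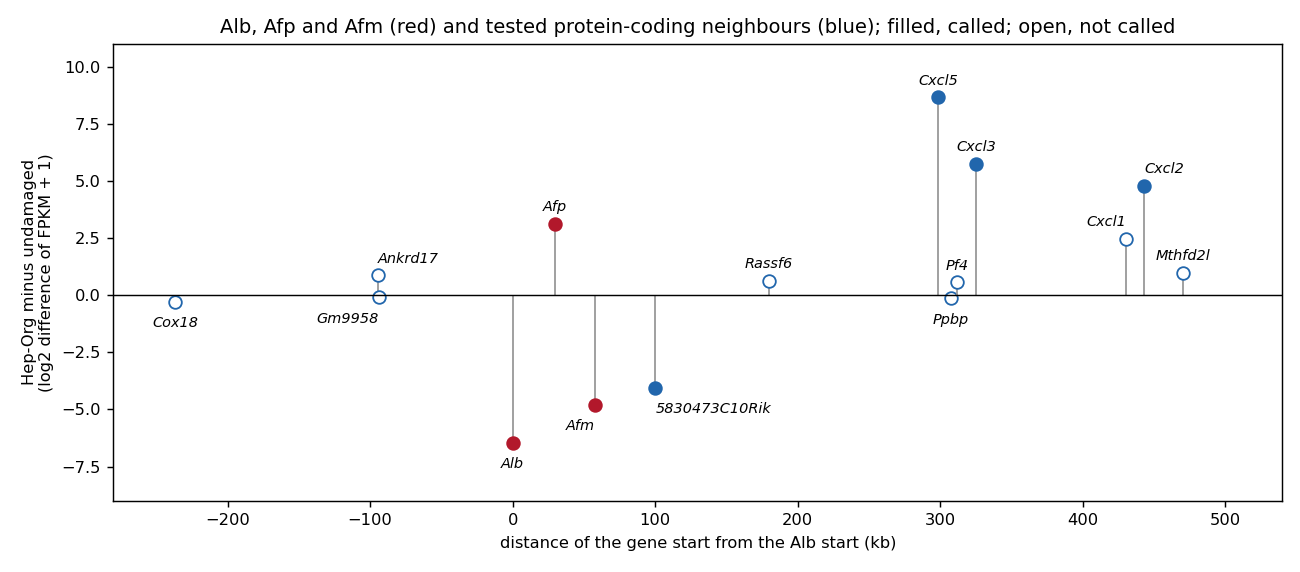
Log2 difference of FPKM + 1, Hep-Org minus undamaged, for Alb, Afp and Afm (red) and the 12 tested protein-coding neighbours (blue), against the distance in kb of each gene's start from that of Alb, filled where called. Alb, Afm and 5830473C10Rik are below 0 and Afp, Cxcl5, Cxcl3 and Cxcl2 above it. The heights of Cxcl5 and Cxcl3 depend on the pseudocount, both genes being listed at 0 in undamaged liver.

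Other secreted hepatocyte proteins fell with the carriers in Hep-Org. Of 32 other plasma protein genes, all tested, 27 were called lower and 0 higher against undamaged liver (median difference -4.06, against -0.03 over all tested genes), and likewise 27 and 0 against PHx 14 d and 21 d. Hrg, a histidine-rich plasma glycoprotein, was at 0.479 ± 0.0367 FPKM in Hep-Org, against 611 ± 221 FPKM in undamaged liver (SD, n = 2 each), Pon1, a lipoprotein-bound esterase, at 0.0209 ± 0.0184 against 368 ± 33.4 FPKM, and Serpinc1 at 0.334 ± 0.0934 against 429 ± 156 FPKM. Their differences of -8.64, -8.50 and -8.29 were larger than that of Alb. At 6 h against undamaged liver 10 of the 32 were called lower and 0 higher (median -1.40, against 0.01 over all genes), among them Serpind1 (-3.34), Igfals, a carrier subunit of insulin-like growth factors (-3.29), and Apob (-2.40), and against PHx 14 d and 21 d 6 were lower.

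Positive acute-phase genes, which the hepatocyte makes more of in inflammation, were set beside the carriers. Of 15 such genes limma called 0 at 6 h against undamaged liver, whose libraries were far apart in Saa1 (0 at an unadjusted p under 0.05, 0 by voom, median 0.58), while 3 were called higher against PHx 14 d and 21 d (median 2.07, against 0.01 over all genes). In Hep-Org 4 of 15 were called lower against undamaged liver, including Itih3 (-4.64), Itih4 (-3.34) and the iron hormone Hamp (-5.32), and against PHx 14 d and 21 d 2 were higher and 2 lower.

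Of 18 transcription factors known to act on Alb or Afp, 2 were called lower and 1 higher in Hep-Org against undamaged liver. That is near the shares of all tested genes, 13.8% lower and 10.6% higher. In Hep-Org Cebpa, a C/EBP activator of hepatocyte genes, was at 12.3 ± 1.5 FPKM, against 122 ± 48.2 FPKM in undamaged liver (SD, n = 2 each; -3.16 ± 0.64 SE, adjusted p = 0.00198 from limma). Hnf4a was at 40.7 ± 3.97 FPKM in Hep-Org, against 108 ± 26.2 FPKM in undamaged liver (-1.37 ± 0.34, adjusted p = 0.00720). Hnf4a was not called against PHx 14 d and 21 d, its difference of -0.89 being under the size threshold (adjusted p = 0.0277), and besides Cebpa the factor Hlf was called lower (-1.34, adjusted p = 0.0297). Trp53, which encodes p53, known in mouse as a repressor of Afp, was the 1 of 18 called higher in Hep-Org (2.31 ± 0.27, adjusted p = 3.07e-05) and also at 6 h (1.27 ± 0.27, adjusted p = 0.00796).

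The 2 zinc finger and homeobox genes known in mouse to keep Afp off after birth were not called in Hep-Org. Zbtb20 was at 1.46 ± 0.315 FPKM in Hep-Org, against 3.02 ± 1.17 FPKM in undamaged liver (-0.68 ± 0.43 SE, adjusted p = 0.243 from limma), and Zhx2 at 2.11 ± 0.335 against 2.98 ± 0.843 FPKM (-0.34 ± 0.21, adjusted p = 0.231). At 6 h Cebpa (-1.72, adjusted p = 0.0762) and Cebpb (1.68, adjusted p = 0.0814) were not called against undamaged liver. Against PHx 14 d and 21 d at 6 h both passed, Cebpa lower (-1.66, adjusted p = 0.0389) and Cebpb higher (2.16, adjusted p = 0.0113).

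Of 10 partners and receptors of the carriers 6 were tested, and in Hep-Org all 6 were called lower against undamaged liver (median -2.43), 5 against PHx 14 d and 21 d. Fcgrt, the receptor that recycles albumin and antibodies, was at 5.30 ± 1.72 FPKM in Hep-Org, against 83.8 ± 29.3 FPKM in undamaged liver (SD, n = 2 each; -3.73 ± 0.37 SE, adjusted p = 6.83e-06 from limma). Rbp4, the retinol carrier that travels bound to transthyretin, was at 360 ± 195 FPKM in Hep-Org, against 3011 ± 654 FPKM in undamaged liver (-3.16 ± 0.65, adjusted p = 0.00236), and it belongs to the list of plasma proteins too. Thrb, a thyroid hormone receptor, was at 0.427 ± 0.101 against 3.41 ± 2.63 FPKM (-1.49 ± 0.31, adjusted p = 0.00224). At 6 h limma called 0 of the 6 against undamaged liver (2 at an unadjusted p under 0.05, 0 by voom) and 0 against PHx 14 d and 21 d (1 at an unadjusted p under 0.05, 1 by voom).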

How the data were processed

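The authors deposited 1 table of FPKM values for the 20 libraries, and all its columns were used. HISAT2 2.0.5 and mm10 are named, per the submitters' processing notes. Counting tool, annotation, strandedness and scaling: not given in the sources used here. The column of undamaged replicate 1 differs from its label in 1 character and was matched to it. Symbols, positions and exon lengths came from GENCODE M21 (GRCm38), with 54495 identifiers matched. Read numbers and depth were recovered from FPKM times exon length: of values worth at most 20 reads, 97.9% to 98.8% per library came within 0.05 of a whole read. FPKM sums ran from 167676 to 988797 per library. TPM values were computed from the deposited FPKM by dividing by each library's sum.

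The 13162 genes reaching 1 FPKM in 2 or more libraries were fitted on log2(FPKM + 1), a scale that understates changes of low genes, with limma 3.58.1 in R 4.3.3: 1 mean per group over all 20 libraries, with limma's trend and robust settings (residual degrees of freedom 10, prior 3.11). Each comparison had its own Benjamini-Hochberg adjustment over all tested genes. The procedure was tested on simulated data. Replicate 2 of each PHx time is the second submission (8 libraries); undamaged and Hep-Org libraries are all of the first (12 libraries). Alternatives were other pseudocounts and filters, same-sum and median-ratio scaling, a submission term, no trend or robust options, first or second submission only, and leaving out each library. The 18 liver libraries alone and limma's voom on recovered reads, which called 1 member at 6 h against undamaged liver, were chosen after seeing the data. Promoters came from RefSeq (GRCm38.p6), with 250 bases before each start searched, and were found for 5 of the 6 genes as used here; Ttr sequence was not used here. Summaries used Python 3.11.15 with pandas 2.3.3, numpy 2.4.6 and scipy 1.17.1.

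The members, lists and tests were chosen with earlier results of these data known. Named were every member; the 3 genes most like each; tested protein-coding neighbours within 500 kb; from each list up to 3 genes with the largest absolute t in Hep-Org and at 6 h against undamaged liver; Zbtb20 and Zhx2; and markers. Apob in Hep-Org, Gpc3, H19, Igf2, Spp1, Krt19, Clec4f, Xist, Ddx3y, Saa1 and the Cebpa and Cebpb calls against PHx 14 d and 21 d were named after their values were seen. The symbol Tf was matched to Trf through RefSeq. A further regulator and the motif tied to it are not reported here, and the 2 promoters printed were chosen after the matches were seen.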

Additional observations from a re-analysis of the deposited data

Results flagged for a closer look

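Among the 4 libraries of PHx 14 d and 21 d, Afp was at 6.41 FPKM in 14 d replicate 1 and at 0.895 to 1.22 FPKM in the other 3, a gap of 0.942 of the whole range. This library stood far from the others for 1 of the 6 genes so tested, and chance marks about 1 in 20. Its value rests on 509 reads. In the same library Afm was at its highest of the 20 (235 FPKM). The ratio of Alb to Afm was the lowest of the 18 liver libraries (102). The 6 other fetal hepatoblast markers summed to 4.33 FPKM there, against 0.193 to 1.43 FPKM in the other 3. Most of that sum was H19, and Gpc3, at 0.299 FPKM, was below its level in 14 d replicate 2. Liver libraries with less Afp had larger sums: 7.98 FPKM in 7 d replicate 2, 5.53 in 6 h replicate 1 and 4.77 in 72 h replicate 2. What lies behind the Afp value of 14 d replicate 1 was not tested.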

How the results depend on the processing

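Counts of members here are counts of calls, 1 for each gene at each time, so a gene called at 2 times counts as 2. Members called at the 8 PHx times against undamaged liver numbered 2 in all. They numbered 1 with a pseudocount of 0.1 and with voom, 4 without the trend and robust options, and 0 with no filter, after rescaling to the same FPKM sum, with the submission term and in the first submission alone. Members called at 6 h to 7 d against PHx 14 d and 21 d also numbered 2, and were 1 with no filter and with the submission term, 4 after the same-sum rescaling, 3 with a pseudocount of 5 or a filter of at least 5 FPKM, and 0 in the first submission alone. Hep-Org calls, 6 in each comparison, were 0 in the first submission alone, where each PHx time has 1 library, with the differences against undamaged liver unaltered (-6.48 for Alb, -4.80 for Afm), and 5 in each after the same-sum rescaling. The test over the PHx times called 0 members, and 1 in the 18 liver libraries. Leaving out 1 library gave 0 to 3 calls against undamaged liver, 0 to 4 against PHx 14 d and 21 d, 5 to 6 for Hep-Org against undamaged liver, 4 to 6 for Hep-Org against PHx 14 d and 21 d, and 0 to 1 over time. No difference turned its sign with a call. The cause of these shifts was not tested.

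The submission term, called a replicate block above, marks the libraries of the second submission, which are replicate 2 of each PHx time. Undamaged and Hep-Org libraries, all of the first submission, do not carry it. Over 28 pairs of times the replicate differences correlated at -0.381 to 0.472 (median -0.115, over 0.1 in 4). In most pairs of times, then, samples of the same number did not deviate together. An effect shared by only some times or genes was not tested in this way. The block left 0 members called against undamaged liver after PHx, 1 against PHx 14 d and 21 d, 6 in each Hep-Org comparison and 0 over time. With 2 libraries a group and residual variance shared over all libraries, differences under about the 95% intervals given could not be seen.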
